A study of Mus musculus with 15 samples.

Results

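Rspo1, Msln and 7 further genes that are used as markers of mesothelial cells were followed in the ileum of mice given proanthocyanidins (PAC), the condensed tannins of grape. The 9 genes were taken by symbol (Rspo1, Msln, Igfbp6, Upk3b, Upk1b, Wt1, Lrrn4, Gpm6a and Bnc1) from a table of 17752 genes listed in at least 1 mouse. The rule names symbols and no measured value, but these genes were chosen with earlier results of these data known. RNA of a piece of ileum was sequenced as 1 library per mouse in 3 groups of 5 female C57BL/6 mice, 8 weeks old by the labels, of the substrain C57BL/6JOlaHsd by the study's methods. Every mouse was gavaged every 2 days over 10 days, either receiving water or a grape pomace PAC fraction at 200 mg/kg. The PAC groups received either the fraction of low mean degree of polymerization (low mDP PAC) or the longer one, which the labels call high molecular weight and the study's methods medium mDP (medium mDP PAC). Values are FPKM, the fragments of a gene scaled to its length and to the size of the library, or expected counts, the estimated number of read pairs of a gene.

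The mesothelium is the flat cell sheet that covers the outer, serosal face of the gut and lies outside the muscle coat. Its cells carry mesothelin (Msln) and uroplakins on their surface and express the zinc finger transcription factor Wt1. R-spondin 1, encoded by Rspo1, is a secreted ligand of the receptors LGR4, LGR5 and LGR6. Together with these receptors it draws the ubiquitin ligases ZNRF3 and RNF43 away from Wnt receptors, which strengthens Wnt signalling, and R-spondins maintain the stem cells of intestinal crypts. A piece of whole ileum holds mucosa, muscle and serosa together, so in these libraries fewer mesothelial cells and less RNA per cell cannot be told apart.

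All 9 genes are protein-coding in the GENCODE annotation of GRCm38. Rspo1 lies at chr4:124986430-125009099 on the plus strand, Msln at chr17:25748613-25754378 on the minus strand, and Igfbp6 at chr15:102144362-102149511 on the plus strand. Upk3b lies at chr5:136038496-136046487 on the plus strand, Upk1b at chr16:38773184-38800328 on the minus strand, and Bnc1 at chr7:81966672-81992292 on the minus strand. Wt1 and Lrrn4 share chromosome 2, at chr2:105126529-105173616 on the plus strand and chr2:132868305-132880891 on the minus strand, and Gpm6a lies at chr8:54954843-55060871 on the plus strand. Rspo1 overlaps the antisense gene Gm12930 by 580 bases and Bnc1 the pseudogene 4833418N17Rik, on the opposite strand, by 291 bases. Gpm6a overlaps 5 unclassified gene models (biotype TEC) on its own strand, by 1375 to 3995 bases. Whether reads were counted by strand is not given in the sources used here, so reads in these overlaps cannot be assigned to a strand, and those shared with the 5 models on the Gpm6a strand could not be told apart even by strand.

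Because 8 of the 9 genes moved together across mice, as shown further on, their promoters were searched for shared short motifs. RefSeq promoter windows of GRCm38.p6, 250 bases before to 50 bases after the start, were matched for 6 of the 9 genes in 7 windows, with none for Msln, Upk1b or Wt1. The windows of Rspo1 (chr4:124986180-124986479, plus strand), Lrrn4 (chr2:132880813-132881112, minus strand), Upk3b (chr5:136038246-136038545, plus strand) and Bnc1 (chr7:81992250-81992549, minus strand) are shown 5′ to 3′ to compare the ligand gene with 3 mesothelial genes. Capitals mark matches on either strand to GGAATG, the core bound by TEAD factors, or to GGGCGG, the GC box.
Rspo1: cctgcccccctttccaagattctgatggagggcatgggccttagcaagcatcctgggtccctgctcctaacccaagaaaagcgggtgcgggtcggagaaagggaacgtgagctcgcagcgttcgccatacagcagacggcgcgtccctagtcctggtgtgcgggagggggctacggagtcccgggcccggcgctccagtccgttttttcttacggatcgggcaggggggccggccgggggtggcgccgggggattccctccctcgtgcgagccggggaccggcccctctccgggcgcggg
Lrrn4: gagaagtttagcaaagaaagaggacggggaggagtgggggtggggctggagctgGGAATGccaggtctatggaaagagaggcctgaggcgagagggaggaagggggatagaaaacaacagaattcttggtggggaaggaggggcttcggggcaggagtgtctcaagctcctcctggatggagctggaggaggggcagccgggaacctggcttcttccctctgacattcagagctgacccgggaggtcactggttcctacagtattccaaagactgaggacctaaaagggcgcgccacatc
Upk3b: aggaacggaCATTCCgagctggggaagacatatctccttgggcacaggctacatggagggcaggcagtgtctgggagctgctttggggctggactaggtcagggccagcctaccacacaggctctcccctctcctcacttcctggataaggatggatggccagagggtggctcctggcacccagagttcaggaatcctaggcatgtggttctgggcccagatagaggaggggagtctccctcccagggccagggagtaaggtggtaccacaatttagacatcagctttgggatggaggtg
Bnc1: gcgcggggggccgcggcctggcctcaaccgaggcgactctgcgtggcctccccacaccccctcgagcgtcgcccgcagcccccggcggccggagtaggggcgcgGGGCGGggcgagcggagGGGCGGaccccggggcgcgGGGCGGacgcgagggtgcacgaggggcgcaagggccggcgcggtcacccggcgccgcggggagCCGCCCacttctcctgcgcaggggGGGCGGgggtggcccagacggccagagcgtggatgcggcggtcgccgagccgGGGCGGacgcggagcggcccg
The TEAD core occurred in 3 of the 7 windows, those of Lrrn4 and Upk3b and 1 of Gpm6a, and in 14.6% of 32544 RefSeq promoter windows of the same length. That Gpm6a window (chr8:54779184-54779483, plus strand) lies well before the Gpm6a interval given above. The other Gpm6a window (chr8:54954478-54954777, plus strand), just before that interval, held 0 matches to either core. The GC box occurred in 2 of the 7, with 6 matches in Bnc1 and 1 in the first of these Gpm6a windows, and in 35.9% of all windows. The GATA core AGATAA was in 0 of the 7 and in 11.2% of all windows. None of these letters was found in the Rspo1 window, none of the matches overlapped another, and no motif was common to all the windows.

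Libraries held 15963086 to 17903886 expected counts, and 14386 genes passed edgeR's filter on low counts, the 9 genes included. Water 1 and water 3 stood apart from the other 13 mice in several tissue markers. All 12 genes of a smooth muscle list were lower in both than in any other mouse, with summed FPKM of 429 to 477 against 854 to 1616. The same held for 9 of 12 enteric neuron and glia genes and 6 of 14 fibroblast genes, but for 0 of 10 endothelial and 0 of 11 epithelial genes. The summed FPKM of the epithelial genes was 12836 to 13433 in these 2 mice, above the 10066 to 12746 of the other 13, and 2 of the 11 genes were higher in both than in any other mouse. Over all genes tested, 9.33% were lower in both of these mice than in the other 13. The fold changes over water are therefore also given without these 2 mice, a choice made after the data were seen.

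Rspo1 was expressed at a low level in each group. In the water group its FPKM was 0.07, 0.66, 0.13, 1.08 and 0.85 in mice 1 to 5, from 2, 19, 4, 34 and 26 expected counts. In the low mDP group it was 0.78, 1.21, 1.68, 0.50 and 1.14, and in the medium mDP group 0.77, 2.27, 0.33, 0.89 and 1.58. The 2 lowest of the 15 mice were water 1 and water 3, the highest was medium mDP PAC 2, and the groups overlapped. Means were 0.558 ± 0.444 (SD, n = 5) in the water group, 1.06 ± 0.449 in the low mDP group and 1.17 ± 0.762 in the medium mDP group. The log2 fold change over water was 0.99 in the medium mDP group (95% interval -0.25 to 2.23, edgeR adjusted p = 0.421) and 0.89 in the low mDP group (-0.36 to 2.13, edgeR adjusted p = 0.976). Neither passed the test. Exact permutation tests of log2(FPKM + 0.1) over the 252 splits of 10 mice, two-sided, gave p = 0.167 for the medium and p = 0.135 for the low mDP group, where the smallest p this design allows is 0.00794. Without water 1 and 3 the log2 fold change was 0.37 in the medium and 0.27 in the low mDP group, and the exact permutation p was 0.768 and 0.589, with 56 splits and a smallest p of 0.0179. Between the PAC fractions Rspo1 differed by 0.10 on the log2 scale, with an interval of -1.07 to 1.27 that holds more than a 2-fold change in either direction.

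Rspo3, the R-spondin with the highest FPKM in this tissue, had 2.30 ± 0.566 (SD, n = 5) in the water group, 2.84 ± 0.519 in the low mDP group and 3.39 ± 0.377 in the medium mDP group. Its 5 medium mDP PAC values, 3.08 to 3.98, all lay above the highest water value of 2.92, a separation that 3.99% of the genes tested showed. The log2 fold change was 0.47 (standard error 0.17, edgeR adjusted p = 0.260), so Rspo3 did not pass the test, and without water 1 and 3 it was 0.31. Rspo2 was lower, at 0.210 ± 0.0561 (SD, n = 5) in the water group and 0.344 ± 0.125 in the medium mDP group. Rspo4 did not exceed 0.07 FPKM in any mouse and was not tested. Of the receptors, Lgr4 (35.2 FPKM in the water group) and Lgr5 (8.19 in the water group), the latter a marker of crypt stem cells, had log2 fold changes of -0.15 and 0.19 in the medium mDP group, with edgeR adjusted p of 0.504 and 0.445. Without water 1 and 3 these fold changes were -0.17 and 0.21. Lgr6 stayed at or under 0.17 FPKM in every mouse. Of 13 genes of the pathway, 11 were tested and 0 were called in any comparison. At an unadjusted p under 0.05 in medium mDP PAC against water, Rspo3 had a fold change above 0 and 3 genes one below 0, namely the Wnt receptor Fzd5 (log2 fold change -0.29) and the co-receptors Lrp6 (-0.27) and Lrp5 (-0.26), with edgeR adjusted p of 0.214, 0.232 and 0.334. Over all genes tested 4.37% were higher and 10.4% lower at this threshold, a split that another scaling turns (upper quartile, 1505 genes higher and 816 lower). In the 13 mice without water 1 and 3, 0 of the 11 genes were higher and 2 lower, against 3.23% and 4.51% of all genes tested. Lrp5 was named after its value was seen. Among 16 Wnt target genes, 15 were tested, all 15 had a fold change above 0 in the medium mDP group, and their median of 0.12 stood against 0.0024 for all genes, of which 50.5% were above 0 (0.07 without water 1 and 3, with 12 above 0). In the low mDP group 9 of the 15 were above 0, against 45.5% of all genes tested, with a median of 0.05. Of these 15, only Smoc2, a crypt stem cell gene, had an unadjusted edgeR p under 0.05 (log2 fold change 0.23, edgeR adjusted p = 0.336). Its FPKM was 14.2 to 17.0 in water 1 and 3 and 21.5 to 27.6 in the other mice, and without these 2 its log2 fold change was 0.06 and 0 of the 15 genes had an unadjusted p under 0.05. The next smallest p among them, with all 15 mice, belonged to Ascl2 (log2 fold change 0.35) and Tnfrsf19 (0.16). Without water 1 and 3 these fold changes were 0.30 and 0.03.

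Msln, which encodes the GPI-anchored surface protein mesothelin, had FPKM of 0.06, 0.90, 0.14, 1.86 and 0.95 in the water group. The values in the low mDP group were 1.27, 1.86, 2.04, 0.45 and 1.73, and in the medium mDP group 2.02, 2.91, 0.58, 1.91 and 1.77. Of the medium mDP PAC mice, 3 lay above the highest water mouse and 0 below the lowest. The log2 fold change in the medium mDP group was 1.16 (95% interval -0.13 to 2.45), and its edgeR adjusted p of 0.379 was the smallest of the 9 genes. Msln without water 1 and 3 had a log2 fold change of 0.51 (-0.53 to 1.55).

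Igfbp6, a secreted binding protein of insulin-like growth factors, had 0.47, 3.77, 0.70, 8.82 and 5.28 FPKM in the water group. It had 6.15, 4.85, 9.82, 4.35 and 6.19 in the low mDP group and 6.36, 11.1, 4.18, 5.96 and 11.1 in the medium mDP group. All 10 PAC mice lay at 4.18 or above, within the range of the water mice other than 1 and 3 or over it. The log2 fold change of Igfbp6 in the medium mDP group was 0.95 (edgeR adjusted p = 0.415) and was 0.31 without water 1 and 3. Among the other genes of its family, Igfbp5 had 6.76 to 8.61 FPKM in these 2 mice and 13.6 to 22.2 in the rest. Igfbp4 had the smallest unadjusted edgeR p of the family (log2 fold change 0.30, edgeR adjusted p = 0.222). Igfbp3 had a log2 fold change of -0.41 (edgeR adjusted p = 0.418) and Igfbp7 of 0.05. Without water 1 and 3 the values were 0.25 for Igfbp4, -0.23 for Igfbp3 and 0.05 for Igfbp7.

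Upk3b and Upk1b both encode uroplakins, proteins known from the plaques of the bladder surface, but their values had little in common. Upk3b was not listed in water 1 and water 3, at a depth where 1 expected count corresponded to 0.0291 FPKM, and had 3.48, 8.03 and 4.09 FPKM in water 2, 4 and 5. It had 4.6, 4.5, 7.92, 2.59 and 5.8 in the low mDP group and 4.27, 9.90, 1.57, 5.56 and 9.25 in the medium mDP group. Upk1b, a tetraspanin, had 6.96, 9.56, 7.28, 7.05 and 6.43 in the water group, 7.86, 7.13, 9.23, 6.71 and 8.47 in the low mDP group and 7.53, 9.78, 8.87, 9.39 and 8.14 in the medium mDP group. In the 2 mice without a listed Upk3b value, Upk1b was thus within the range of the other mice. Across the 15 mice the coefficient of variation was 64.3% for Upk3b and 14.0% for Upk1b. The log2 fold changes in the medium mDP group were 0.90 (95% interval -0.83 to 2.63, edgeR adjusted p = 0.595) and 0.14 (-0.13 to 0.40, edgeR adjusted p = 0.596). Of the other uroplakins, Upk2 was not listed in any water mouse, Upk3a had 0.746 ± 0.172 FPKM (SD, n = 5) and Upk1a 1.22 ± 0.206 in the water group. Upk3bl (uroplakin 3B-like) was listed at 0.18 FPKM in both water 1 and water 3.

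The transcription factor genes Wt1 and Bnc1 had the lowest levels. Wt1 was not listed in water 1 and had 0.39, 0.02, 0.89 and 0.57 FPKM in water 2 to 5, 0.47, 0.45, 0.79, 0.27 and 0.79 in the low mDP group and 0.49, 1.40, 0.10, 0.72 and 1.13 in the medium mDP group. Bnc1, which encodes basonuclin 1, was not listed in water 1 and water 3, and had 0.21, 0.37 and 0.16 in the other water mice. Its values were 0.32, 0.28, 0.30, 0.05 and 0.37 in the low mDP group and 0.32, 0.65, 0.10, 0.39 and 0.37 in the medium mDP group, from at most 52 expected counts. Bnc1 had the largest log2 fold change of the 9 genes in the medium mDP group, 1.22 (95% interval -0.28 to 2.72, edgeR adjusted p = 0.418). That of Wt1 was 0.96 (-0.59 to 2.52, edgeR adjusted p = 0.522). They were, without water 1 and 3, 0.49 for Bnc1, which was then below the 0.51 of Msln, and 0.25 for Wt1.

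Lrrn4 and Gpm6a encode membrane proteins, and both were lowest in water 1 and 3. Lrrn4, a leucine-rich repeat protein, had 0.03, 1.19, 0.02, 2.78 and 1.5 FPKM in the water group, 1.31, 1.68, 2.37, 0.89 and 2.28 in the low mDP group and 1.40, 3.16, 0.48, 1.98 and 2.37 in the medium mDP group. Gpm6a, a membrane glycoprotein that neurons also make, had 0.89, 2.53, 0.51, 3.91 and 2.58 in the water group. It had 2.84, 2.93, 3.80, 1.19 and 4.34 in the low mDP group and 3.00, 6.01, 1.70, 3.72 and 3.82 in the medium mDP group. Their log2 fold changes in the medium mDP group were 0.69 for Lrrn4 and 0.73 for Gpm6a, with edgeR adjusted p of 0.655 and 0.446. Leaving out water 1 and 3 gave -0.03 and 0.21, and the smooth muscle score as a covariate gave -0.16 and 0.02.

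**Figure D1:**
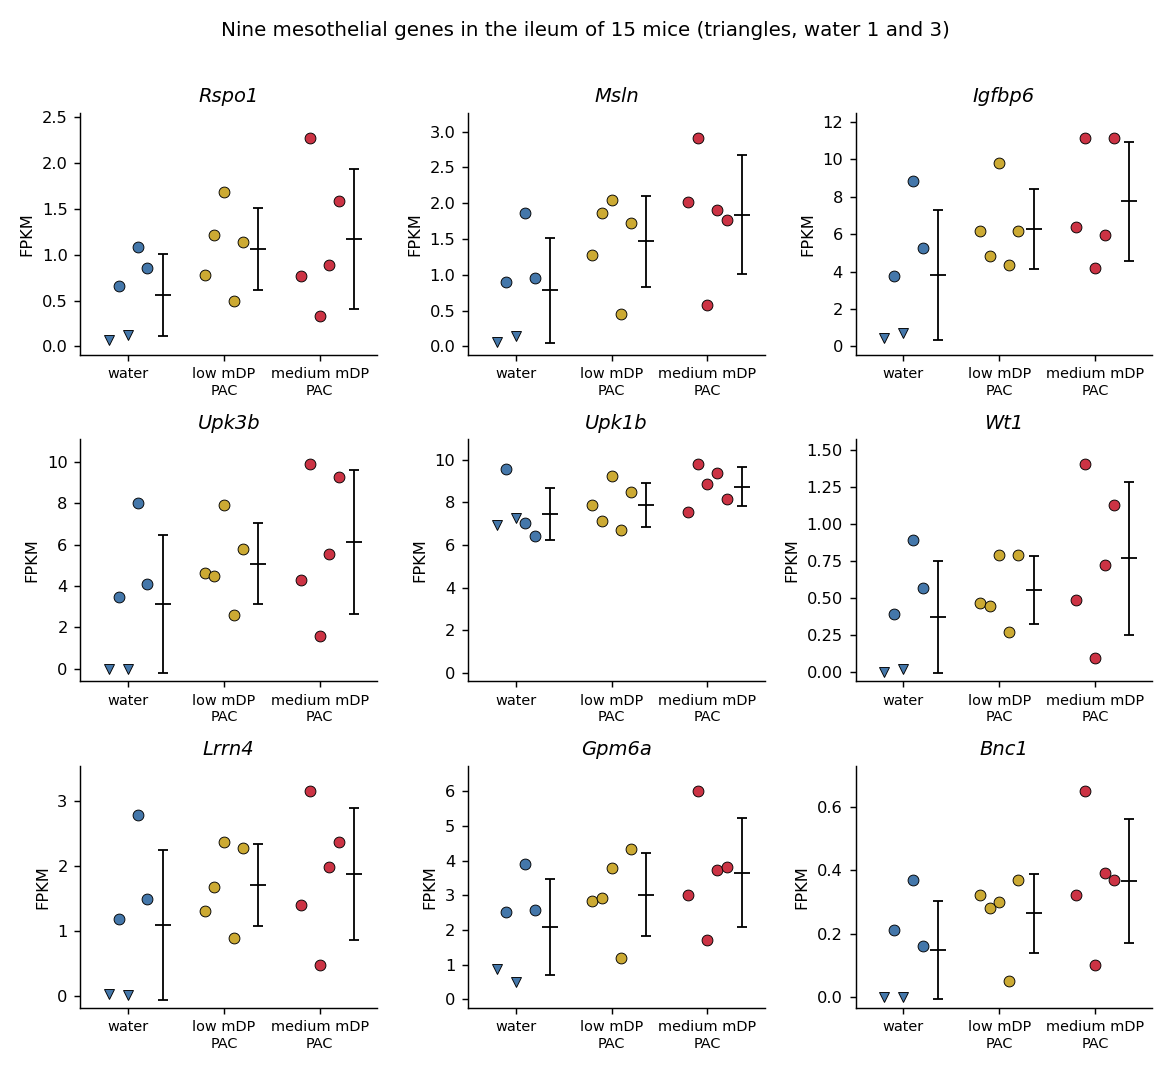
FPKM (y axis, 1 scale per gene) of the 9 genes in each of the 15 mice by group, with the mean and SD of 5 mice beside each group. Triangles mark water 1 and 3, which hold the 2 lowest values in 8 of the 9 panels, the exception being Upk1b, and the values of the groups overlap in all panels.

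The same mice held the extremes in nearly all of these genes. Water 1 and water 3 were the 2 lowest of the 15 mice for 8 of the 9 genes, the exception being Upk1b. Within the PAC groups, low mDP PAC 4 was the lowest of its group for 9 of the 9 genes and medium mDP PAC 3 for 8. The highest values belonged to water 4 and medium mDP PAC 2, each for 8 of the 9 genes in its group. All 9 genes were listed in 13 of the 15 libraries. In water 1 and 3, Upk3b and Bnc1 were not listed, nor was Wt1 in water 1, and Rspo1, Msln, Wt1 and Lrrn4 had at most 5 counts each, whereas Igfbp6 had 10 and 15, Gpm6a 45 and 26 and Upk1b 206 and 215.

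The order of the mean FPKM over the 15 mice was Upk1b (8.03), Igfbp6 (5.94), Upk3b (4.77), Gpm6a (2.92), Lrrn4 (1.56), Msln (1.36), Rspo1 (0.929), Wt1 (0.565) and Bnc1 (0.259). Within a library this order was kept in all 15 mice between Igfbp6 and Upk3b, between Gpm6a and Lrrn4 and between Rspo1 and Wt1. Lrrn4 was above Msln in 10 mice only, and their mean log2 ratio of 0.09 ± 0.48 (SD, n = 15) was smaller than its SD. For the neighbours Upk1b and Igfbp6 (0.75 ± 1.19) and Upk3b and Gpm6a (0.19 ± 1.33) it was also smaller. The SD gives the spread between mice, and whether the means differ from 0 was not tested. The log2 ratio of Igfbp6 to Upk3b was smaller than its SD as well (0.68 ± 0.91), although it was above 0 in all 15 mice.

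In the medium mDP group against water, 0 of the 9 genes were called at an edgeR adjusted p under 0.05, where 0.0139% of all genes tested were called. At an unadjusted edgeR p under 0.05, 0 of the 9 were higher, against 4.37% of all genes tested. DESeq2 had 0 of the 9 at this threshold, against 5.17% of its 17731 genes. With limma on log2(FPKM + 0.1) Msln, Igfbp6 and Bnc1 were higher at this threshold (3 of the 9, smallest adjusted p = 0.227), against 15.4% of all genes tested, and without water 1 and 3 it had 0 of the 9, against 7.66%. Single mice also moved the edgeR count. Without water 4 it was 5 of the 9 (Rspo1, Msln, Igfbp6, Gpm6a and Bnc1), against 5.20% of all genes tested, with log2 fold changes up to 1.89 in Bnc1 and a smallest adjusted p of 0.275. Without medium mDP PAC 3 it was 2 of the 9 (Rspo1 and Msln), against 5.25%, and without any other single mouse of these groups 0. All 9 fold changes were above 0, with a median of 0.95 against 0.0024 for all genes, but they come from the same libraries and are not separate observations. In the low mDP group, 0 of the 9 were called (0% of all genes tested), 0 were higher at an unadjusted p under 0.05 (1.40% of all genes tested), and their median log2 fold change was 0.67. Without water 4, Msln (log2 fold change 1.52) and Igfbp6 (1.27) were higher at this threshold, 2 of the 9 against 2.52% of all genes tested, with a smallest adjusted p of 0.836, and without any other single water or low mDP PAC mouse 0 were. Both comparisons share the water mice. Medium against low mDP PAC called 0 of the 9 and 0% of all genes tested, with a median of 0.24 and differences from 0.10 in Rspo1 and Lrrn4 to 0.43 in Wt1. The intervals of these differences reached from -1.46 to 1.94 over the 9 genes, and for Upk1b, the most evenly expressed, from -0.15 to 0.37. A re-implemented NOISeq run on FPKM (threshold: probability 0.8, fold 2), called 0 of the 9 in the medium mDP group and 0.141% of the genes listed. Its ratio of means was 2.09 for Rspo1, 2.35 for Msln and 2.44 for Bnc1, with probabilities of 0.450, 0.563 and 0.292. The highest probabilities of the 9 were 0.757 for Igfbp6 (ratio 2.04) and 0.711 for Upk3b, whose ratio lay below the fold of 2. The ratios of these 5 genes without water 1 and 3 were 1.30 to 1.49 except for Upk3b, at 1.18, the highest probability was 0.518 for Igfbp6, and 0 of the 9 were called.

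The differences from water were smaller without water 1 and 3. Both mice lay below the other 13 for 8 of the 9 genes, so leaving them out raises the water mean of these by construction. In the medium mDP group the median log2 fold change of the 9 genes was then 0.25, that of Rspo1 0.37 (95% interval -0.72 to 1.46), that of Upk3b 0.16 and that of Lrrn4 -0.03. In the low mDP group the median was 0.01, with 5 genes above 0 and 4 below. With all 15 mice and the smooth muscle score of each mouse as a covariate, also chosen after the data were seen, the log2 fold change of Rspo1 in the medium mDP group was 0.12 (-0.55 to 0.79) and the median of the 9 genes 0.09. The standard error of Rspo1 was 0.58 without and 0.31 with this covariate. Of the 9 genes, 0 were called in any of these fits. At an unadjusted edgeR p under 0.05 in medium mDP PAC against water, 0 of the 9 were higher or lower in either. Over all genes tested, 470 were higher and 657 lower of 14565 without water 1 and 3. With the covariate these counts were 1184 and 1068 of 14386. The smooth muscle score had an r of 0.960 with the score of the 9 genes (group means subtracted), so the covariate fit cannot set a part of muscle apart. No score of nerve markers was fitted. The part of the muscle and nerve markers in the differences was not tested.

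**Figure D2:**
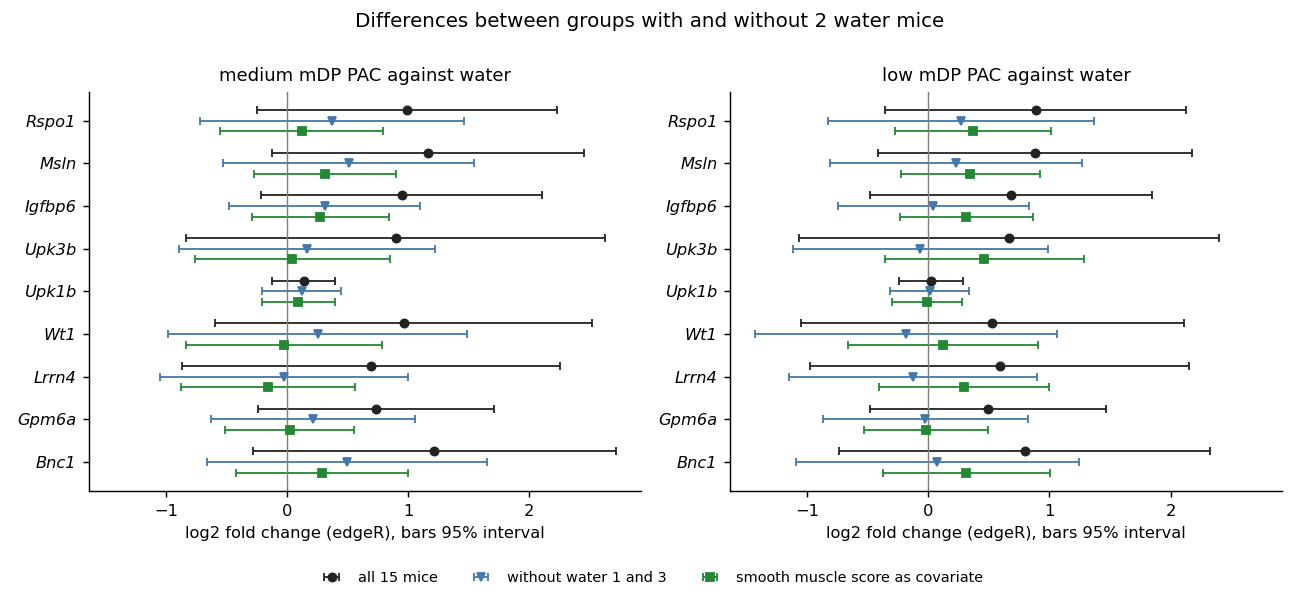
Log2 fold changes (x axis) of the 9 genes over water with medium (left) and low mDP PAC (right) from edgeR, with 95% intervals, for all 15 mice, without water 1 and 3 and with the smooth muscle score as a covariate. All intervals include 0, and on the left the 9 points lie closer to 0 without the 2 water mice (Rspo1 0.99 against 0.37), while Upk1b moves least, from 0.14 to 0.12.

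Marker lists of other tissue layers were scored as the mean of centred log2(FPKM + 0.1), and each is set beside the score of the 9 genes as a description. Over the 15 mice with group means subtracted, Pearson's r with the 9 genes was 0.960 for smooth muscle, 0.936 for enteric neurons and glia and 0.935 for 19 other mesothelial genes. Without water 1 and 3 these were 0.879, 0.808 and 0.850 in the 13 mice left. It was 0.731 for fibroblasts (0.458 in the 13 mice), -0.297 for endothelium and -0.021 for epithelium, the last 0.617 in the 13 mice. Of the 12 smooth muscle genes all had a log2 fold change above 0 in medium mDP PAC against water, with a median of 0.42 that was -0.02 without water 1 and 3, and of the 12 neuron and glia genes all were above 0, with a median of 0.55 and then 0.13. At an unadjusted edgeR p under 0.05, 3 of these 12 were higher (4.37% of all genes tested), and 0 without the 2 mice (3.23%). Of the 11 epithelial genes 9 had a fold change below 0 in the same comparison, 3 of them at an unadjusted edgeR p under 0.05 (10.4% of all genes tested were lower), with a median of -0.17. In the 13 mice the median was -0.11, and 1 of the 11 genes was lower at this threshold, against 4.51% of all genes tested. The adipose and mesentery list had an r of 0.319, and 9 of its 10 genes had a fold change above 0 in either PAC group over water, with medians of 0.58 (medium) and 0.59 (low mDP) and of 0.32 and 0.41 without water 1 and 3. The 15 Wnt target genes tested belong to a list of 16 whose r was -0.059 over the 15 mice and -0.543 in the 13. The lymphoid follicle list had an r of -0.442, and the median log2 fold change of its 10 genes was 0.13 in medium mDP PAC against water (7 above 0), -1.20 in low mDP PAC against water (0 above 0) and 1.36 in medium against low mDP PAC (10 above 0), with 0 of the 10 at an unadjusted p under 0.05 in each. Without the 2 water mice the first 2 medians were 0.68 and -0.73. Its score varied widely within each group, from -2.15 to 2.56 in the water group, -1.96 to 1.62 in the low and -2.20 to 3.11 in the medium mDP group, and its part in the differences of the 9 genes was not tested. Markers of pancreas, of the female reproductive tract and of bladder and kidney were low, with summed FPKM of at most 0.51, 2.41 and 3.33 in any mouse, and their r was 0.319, -0.095 and 0.109. The score of the 9 genes was -2.44 and -2.33 in water 1 and 3 and lay between -0.69 and 1.29 in the other 13 mice. In the same 2 mice the smooth muscle score was -1.25 and -1.43, with -0.44 to 0.50 in the other 13.

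**Figure D3:**
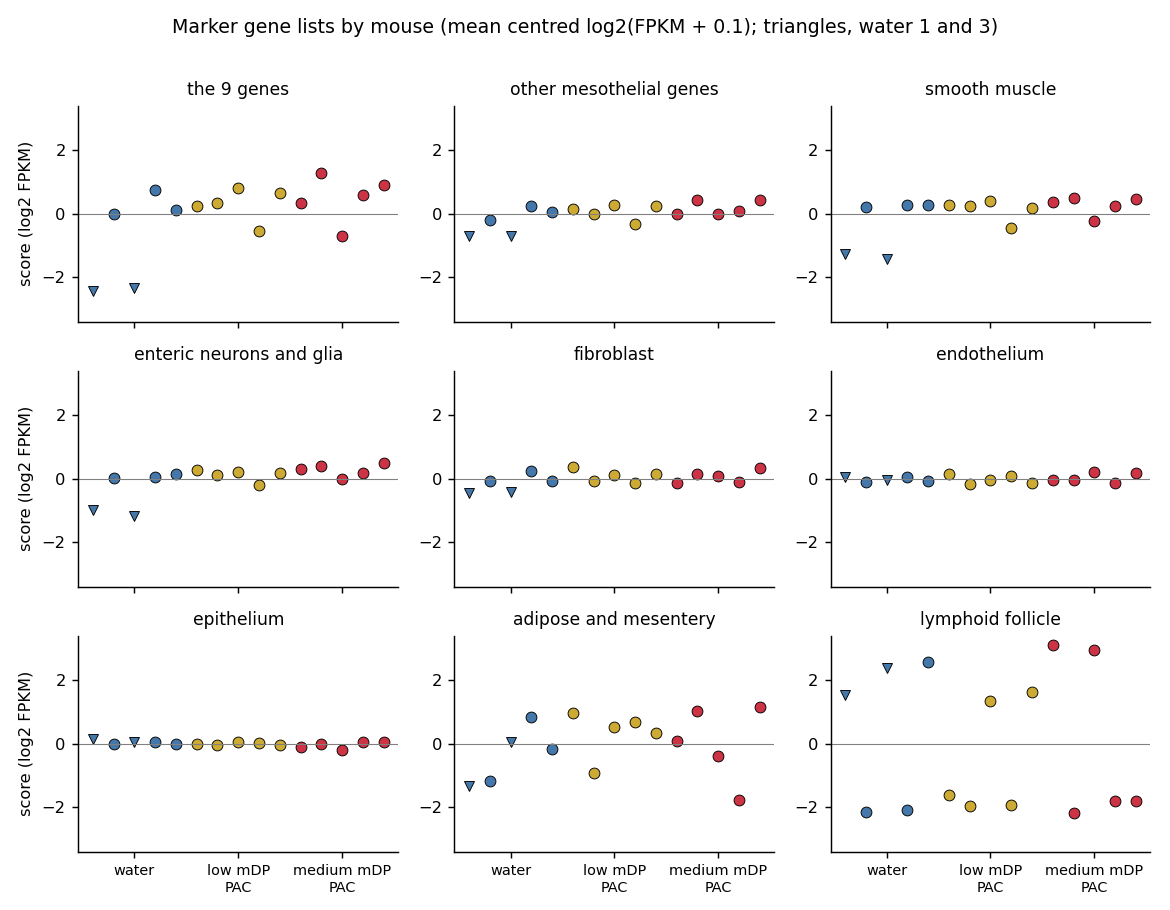
Scores of 9 gene lists (y axis, mean centred log2(FPKM + 0.1)) in each mouse, ordered by group and number. In water 1 and 3 (triangles) the 9 genes lie at -2.44 and -2.33 and smooth muscle at -1.25 and -1.43, below all other mice, whereas epithelium lies at 0.14 and 0.05 and endothelium at 0.05 and -0.03.

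Of 20 other genes known from mesothelium, 19 were listed and 18 tested. Their median log2 fold change in the medium mDP group was 0.38, with 15 above 0, 3 below and 0 called. Of these, Calb2 (calretinin, log2 fold change 0.62, edgeR adjusted p = 0.265), Krt7 (keratin 7, 0.37, adjusted p = 0.234) and Cldn15 (claudin 15, -0.27, adjusted p = 0.314) had an unadjusted edgeR p under 0.05 in the medium mDP group, 2 higher and 1 lower of 18, against 4.37% and 10.4% of all genes tested. In the 13 mice without water 1 and 3 this held for Krt7 only (log2 fold change 0.45), 1 higher and 0 lower of 18 against 3.23% and 4.51% of all genes tested, with Calb2 at 0.28 and Cldn15 at -0.28. Calb2 had 1.57 to 1.70 FPKM in water 1 and 3 and 2.70 to 5.03 in the other mice, and Krt7, at 59.3 to 111 FPKM a gene of far higher level than Msln, had 63.4 to 77.1 in these 2 mice. Calretinin is also known from enteric neurons, and keratin 7 and claudin 15 from gut epithelium. Without water 1 and 3 the median of these 18 genes was 0.08.

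Within the 9 genes, 36 pairs were compared across the 15 mice on log2(FPKM + 0.1) with group means subtracted, so that differences between the groups do not enter. The 28 pairs without Upk1b had Pearson's r between 0.843 and 0.989 (median 0.929) and Spearman's rho between 0.803 and 0.988, and all 28 passed a permutation test within groups (largest adjusted p = 0.000591). Because water 1 and 3 lie far below the other mice, the same was computed in the other 13. There r lay between 0.708 and 0.982 (median 0.887), rho between 0.709 and 0.974, and all 28 still passed (largest adjusted p = 0.0212, permutation test). The 8 pairs with Upk1b had r between 0.183 and 0.362 and 0 passed (smallest permutation p = 0.256). The 9 genes were chosen with earlier results of these data known, and how many pairs of other genes would pass was not computed. High r was not limited to these genes. In group-centred log2 CPM over the 15 mice, 465 of the 14386 genes tested had an r over 0.8 with Rspo1. With the mean of the 9 genes, 602 did.

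**Figure D4:**
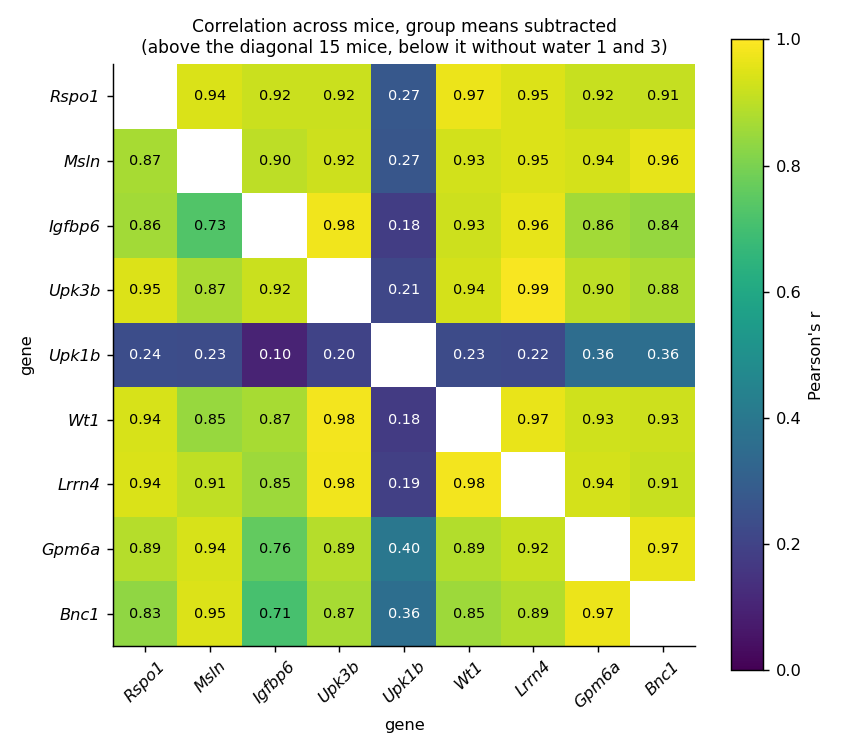
Pearson's r of log2(FPKM + 0.1) with group means subtracted for each pair of the 9 genes (axes), over 15 mice above the diagonal and over the 13 mice without water 1 and 3 below it. The row and column of Upk1b, at 0.10 to 0.40, stand apart from the other pairs, at 0.71 to 0.99.

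Rspo1 followed Wt1 most closely of the 9 genes, with r = 0.971 and rho = 0.958 over the 15 mice (permutation p = 1e-05 for both, the smallest that 100000 permutations can give, adjusted p = 3.3e-05 for r and 4e-05 for rho). In the 13 mice r was 0.939 (permutation p = 8e-05, adjusted p = 0.00032). With Upk3b it was 0.921 over the 15 mice and 0.948 in the 13, and with Lrrn4 0.948 and 0.942. With Msln it was 0.942 and 0.869, with Igfbp6 0.921 and 0.860, with Gpm6a 0.916 and 0.888, and with Bnc1 0.913 and 0.835. For Rspo1 the 2 mice farthest from the median were water 1 and medium mDP PAC 3, and without them r with these 7 genes was 0.866 to 0.954. With Upk1b, r was 0.274 (rho 0.236, permutation p = 0.421, adjusted p = 0.489).

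**Figure D5:**
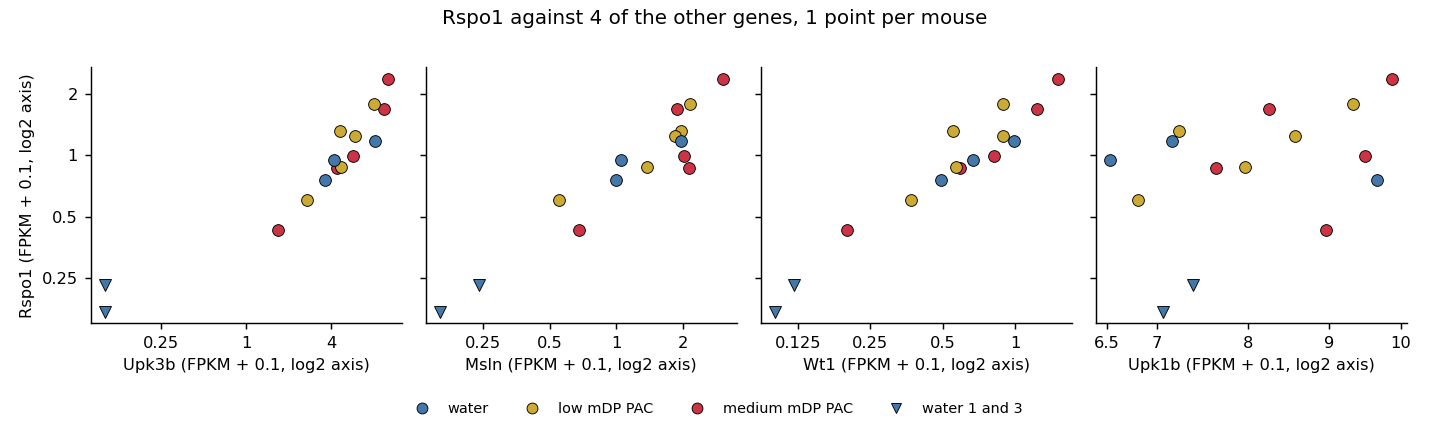
Rspo1 (y axis) against Upk3b, Msln, Wt1 and Upk1b (x axes), as FPKM + 0.1 on log2 axes, with 1 point per mouse coloured by group. Rspo1 rises with the first 3 genes in the 13 mice other than water 1 and 3 (r = 0.948, 0.869 and 0.939 with group means subtracted) but not with Upk1b (0.237).

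Set against another mesothelial gene of the same library, Rspo1 varied less than on its own. Its FPKM was 17.7% ± 3.82 of that of Upk3b in the 3 water mice that listed Upk3b (SD, n = 3), 20.8% ± 3.73 (SD, n = 5) in the low mDP group and 19.0% ± 2.88 (SD, n = 5) in the medium mDP group, and the 3 groups overlapped. Over these 13 mice the ratio ranged from 13.4% to 26.9% while Rspo1 itself ranged from 0.33 to 2.27 FPKM. Relative to Igfbp6, which was listed in all 15 mice, Rspo1 had 15.9% ± 2.46 in the water group, 16.9% ± 5.34 in the low mDP group and 13.9% ± 4.56 in the medium mDP group (SD, n = 5 each). In water 1 and 3 it had 14.9% and 18.6% of the Igfbp6 level, within the 7.90% to 24.9% of the other mice. Log2 Rspo1 less the mean log2 of the 7 other genes without Upk1b had an SD of 0.35 over the 15 mice, and log2 Rspo1 an SD of 1.05.

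Over all 14386 genes tested, those with the highest r with Rspo1 in group-centred log2 CPM over the 15 mice are given as a description. They were Wt1 (0.970), Mapt (0.963), Zfhx4 (0.957), Rgma (0.952), Osr1 (0.949), Camta1 (0.948), Msln (0.948), Jph2 (0.946), Ppm1l (0.946) and Npas4 (0.945). Mapt encodes the microtubule protein tau, Osr1 a transcription factor and Jph2 a junctional membrane protein of muscle. In the 13 mice without water 1 and 3, Upk3b (0.951) and Lrrn4 (0.945) ranked 1 and 2 and Wt1 ranked 5. An r over 0.8 with Rspo1 was found for 465 genes over the 15 mice and for 193 in the 13. The genes other than members with the highest r with the mean of the 9 genes were Mylk (0.983), Gpc3 (0.982), Optc (0.979), Trnp1 (0.978), Ppm1l (0.977), Atp2b4 (0.972), Cap2 (0.971), Pgm5 (0.969), Flnc (0.969) and Osr1 (0.968). Mylk, the myosin light chain kinase of smooth muscle, had 54.2 to 54.3 FPKM in water 1 and 3 and 84.0 to 143 in the other mice. Gpc3, a glypican of the cell surface, had 1.33 to 1.38 in these mice and 3.26 to 8.97 in the rest. Pgm5 and Flnc, both proteins of muscle cell adhesion sites, had r of 0.882 and 0.935 in the 13 mice.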

How the data were processed

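RNA-seq of mouse ileum, 1 library per mouse and 5 mice per group, was analysed from values the authors deposited. Per the study's methods, BGISEQ-500 paired-end reads were cleaned with SOAPnuke and mapped with Bowtie2 to mm10, whereas the submitters' processing notes name HISAT and DESeq2, and the counting tool is not given in the sources used here. The authors deposited expected counts, which are not normalized, and FPKM, scaled by gene length and library with 2 decimals. Genes absent from a library were set to 0, and the lowest FPKM listed was 0.01. 
The expected counts, 15963086 to 17903886 per mouse, were rounded and tested with edgeR 4.0.16 in R 4.3.3 (TMM, filterByExpr, quasi-likelihood, 1 model of 15 mice), with Benjamini-Hochberg adjustment over 14386 genes and a threshold of 0.05. Single genes were compared by exact permutation of log2(FPKM + 0.1), and pairs by 100000 permutations within groups in Python 3.11.15. Alternatives were DESeq2 1.42.0, limma 3.58.1, a re-implemented NOISeq, other scalings, filters, pseudocounts, a replicate block, leaving out mice and, chosen after the data were seen, leaving out water 1 and 3 together and a smooth muscle score as a covariate. The tests were checked on simulated data. The 9 genes were all named, as were R-spondins and Lgr receptors, the 3 genes of each other list with the smallest p in medium mDP PAC against water, and the 10 genes most like Rspo1 and the 9-gene mean. The other Igfbp and uroplakin genes were named after their values were seen. The 9 genes and the lists were chosen with earlier results of these data known.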

Additional observations from a re-analysis of the deposited data

Results flagged for a closer look

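In 27 sets of 5 mice (9 genes in 3 groups), 2 had an end value whose gap to its neighbour, divided by the range of the set, exceeded Dixon's critical value of 0.71. Chance flags about 1 in 20 such sets. Upk1b had 9.56 FPKM in water 2, the highest of its group, with a gap of 0.728 of the range. Bnc1 had 0.05 FPKM in mouse 4 of the low mDP group, the lowest of its group, with a gap of 0.719 of the range.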

How the results depend on the processing

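In each comparison 0 of the 9 genes were called under any alternative that gave an adjusted p, with the smallest at 0.227 (limma) in medium mDP against water. DESeq2 gave none for the 9 genes there, as it left 9969 of 17731 genes without one. It called 130 genes over the whole table in that comparison, limma 12 and edgeR 2. Upper-quartile scaling turned the edgeR split at an unadjusted p under 0.05 from 628 higher and 1500 lower to 1505 and 816. In all 19 alternatives 28 of 36 pairs passed.

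Of 594 fold changes under alternatives, 548 kept their direction and 46 did not, 27 of these in medium against low mDP, where values lay near 0, and the cause was not tested. In medium mDP against water, Lrrn4 was -0.026 without water 1 and 3, -0.16 with the smooth muscle covariate and -0.22 with both. Wt1 was -0.025 with the covariate and -0.035 with both, and Upk3b -0.054 with both. In low mDP against water without water 1 and 3, Upk3b was -0.067, Wt1 -0.18, Lrrn4 -0.13 and Gpm6a -0.024. Limma without these mice gave -0.084 for Lrrn4 in medium mDP against water, and -0.025 for Upk3b, -0.15 for Wt1, -0.083 for Lrrn4 and -0.080 for Gpm6a in low mDP against water. In low mDP against water the covariate gave -0.0086 for Upk1b and -0.017 for Gpm6a. In medium against low mDP, limma gave -0.010 for Rspo1 and -0.00070 for Lrrn4, with or without these mice. The covariate gave -0.25 for Rspo1, -0.032 for Msln, -0.039 for Igfbp6, -0.42 for Upk3b, -0.15 for Wt1, -0.45 for Lrrn4 and -0.026 for Bnc1. With both it gave -0.33 for Rspo1, -0.075 for Msln, -0.23 for Upk3b, -0.12 for Wt1, -0.32 for Lrrn4 and -0.044 for Gpm6a. Leaving out 1 mouse at a time gave -0.040 to 0.12 for Upk1b in low mDP against water. In medium against low mDP it gave -0.30 to 0.35 for Rspo1, -0.022 to 0.49 for Upk3b, -0.18 to 0.36 for Lrrn4 and -0.028 to 0.43 for Gpm6a. In medium mDP against water it gave 0.59 to 1.39 for Rspo1, 0.86 to 1.80 for Msln, 0.90 to 1.89 for Bnc1, 0.67 to 1.54 for Igfbp6, 0.58 to 1.64 for Upk3b, 0.62 to 1.59 for Wt1, 0.38 to 1.40 for Lrrn4 and 0.47 to 1.10 for Gpm6a, all highest without water 4, and 0.073 to 0.23 for Upk1b. For low mDP PAC it gave 0.21 to 1.52 over the 8 genes other than Upk1b. Without water 1 and 3, the r of the 9-gene score was 0.706 with uroplakins (0.905 in 15 mice), 0.242 with Igfbp genes (0.755) and 0.617 with epithelium (-0.021). The uroplakin list holds Upk3b and Upk1b and the Igfbp list Igfbp6, so these are in part a score against itself.

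Same-numbered mice had a mean r of 0.12 between water and low mDP and 0.15 between water and medium mDP. Between the PAC groups it was -0.12. Mice of other numbers had -0.031, -0.038 and 0.032. An r over 0.1 was found in 2, 3 and 0 of 5 same-numbered pairs. These differences were not tested, and the numbers were not used as pairs. A replicate block called 0 of the 9 genes in each comparison, gave 0.99 for Rspo1 in medium mDP against water, and in medium against low mDP gave -0.090 for Rspo1, -0.16 for Upk3b and -0.21 for Lrrn4. Counts of 0 to 5 in water 1 and 3 limit the precision of the fold changes over water of Rspo1, Msln, Upk3b, Wt1, Lrrn4 and Bnc1.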
